A study of Mus musculus with 8 samples.

Results

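The genes described here are the nuclear genes for the protein subunits of oxidative phosphorylation, the machinery that carries electrons from nutrients to oxygen and makes ATP in the mitochondrion. They were taken by symbol from a table of 16940 genes: names beginning with Ndufa, Ndufb, Ndufc, Ndufs or Ndufv and a number (complex I), the Sdh subunits (complex II), Uqcr names and Cyc1 (complex III), Cox4 to Cox8 names (complex IV) and Atp5 names (complex V, the ATP synthase). Names of pseudogenes ending in -ps and the Ndufaf assembly factors were left out. The rule found 79 rows with 78 different names, because Atp5o is listed under a pair of gene IDs. By complex these were 34 rows for complex I, 4 for complex II, 9 for complex III, 14 for complex IV and 18 for complex V. Cox7a2l, a factor that joins complexes III and IV, and Ndufa4, now counted as a complex IV subunit, were placed in complex IV.

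Transient transcriptome sequencing (TT-seq), which labels RNA made during a short pulse of 4-thiouridine and so reports new transcription rather than stored mRNA, was applied to E14 cells, a line of mouse embryonic stem cells. All 4 groups carried the genotype CTCF AID, in which the DNA-binding protein CTCF is fused to an auxin-inducible degron, so that the auxin IAA can trigger its loss. The control line was measured without IAA (untreated) and after 12 h of IAA. The other 2 lines, 1 with wild-type CTCF overexpressed and 1 with CTCF bearing an unspecified mutation, received the same IAA treatment. The control samples are titled oectrl, with the same prefix oe as those 2 lines, so the control may carry a control construct. Each group had 2 libraries, all cells were grown with LIF, PD0325901 and CHIR99021, and the labels do not say how many clones each line came from or whether the replicates were separate cultures, so p-values measure only the spread between these libraries. CTCF protein and the expression of the Ctcf gene were not analysed here, nor were cells without the degron given IAA.

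Electrons enter the respiratory chain at complex I from NADH and at complex II from succinate, pass through ubiquinone to complex III, and travel by cytochrome c to complex IV, which reduces oxygen. The proton gradient that complexes I, III and IV build turns the c ring of complex V, which drives ATP synthesis in the F1 head. Most subunits are encoded in the nucleus and must be matched to a small set encoded in mitochondrial DNA. The nuclear promoters of these genes are known targets of the transcription factors NRF1, GABPA and YY1. The mitochondrially encoded subunits and the nuclear subunits Cox4i1 and Ndufa13 were not analysed here.

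Depth ran from 15671114 to 21561141 reads per library, and the lowest value of any member corresponded to 31 reads. All values below are the authors' normalized read counts unless a fold change is named. The members together took 0.344% to 0.368% of each library's total. The 7 embryonic stem cell markers listed were present in every library, with a summed level of 37047 and 37548 untreated, 35066 and 35330 with IAA, 39827 and 42244 with wild-type CTCF, and 39207 and 40775 with mutated CTCF, and the 5 fibroblast feeder markers were not listed, while 2 of 4 neural markers summed to 156 to 284 and 4 of 6 mesoderm and endoderm markers to 221 to 291. The stem cell marker sum was lowest with IAA and highest in the lines with added CTCF, where 5 (wild-type) and 6 (mutated) of the 7 markers were called higher than with IAA alone and 0 lower, where 21.5% and 22.0% of all tested genes were called higher. From untreated to IAA 1 marker was called higher and 2 lower, with a median log2 fold change of 0.024, so the markers did not fall together as their sum did. The neural marker sum lay higher in the treated groups than in the untreated one. The part of these markers in the results was not tested. In bulk samples such as these, fewer cells of a type and less RNA per cell cannot be told apart. In wild-type CTCF replicate 2, 66 of the 79 members were higher than in replicate 1 and 13 lower, with a median log2 difference of 0.076 against 0.05 over all genes. Many counts that use this library are therefore also given without it, and those given only with it are less certain. Leaving out a library leaves a single one in its group, and the calls over all genes then also fell in each comparison using that group. Fewer member calls in such runs are therefore not particular to these genes.

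All 79 members passed the filter of a mean of at least 10. The members were taken from a deposited table in which each of the 16940 genes has 10 reads or more in at least 2 libraries, so passing was nearly fixed by that selection. Whether intron reads were counted is not known, and the order of levels depends on it. Per kilobase of whole gene, the highest mean levels over the 8 libraries were those of Atp5b, the catalytic beta subunit of the F1 head (578 normalized reads per kb), Cox7c, a small membrane subunit of complex IV (521 per kb), and Atp5a1, the alpha subunit of the F1 head (341 per kb). At the other end lay the second Atp5o row (0.344 per kb), a gene model of 242585 bp that overlaps other listed genes, and Cox7b2 (12.2 per kb), whose gene spans 105382 bp. Per kilobase of exon the highest were instead Cox7b2 (2380 per kb), Atp5c1 (1851 per kb) and Ndufs4 (1766 per kb), so these levels give no firm order. Without a correction for length, the highest and lowest mean of each complex were Ndufs4 (4783) and Ndufa1 (106) in complex I, Sdha (2596) and Sdhb (521) in complex II, and Uqcrc2 (1784) and Uqcr11 (209) in complex III. In complexes IV and V they were Cox5a (2482) and Cox7a1 (39.9), and Atp5b (4116) and the second Atp5o row (83.4). These uncorrected levels describe the depth behind each gene and are not compared between genes.

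With IAA, transcription of these genes changed in both directions and by modest amounts. Of the 79 members, 13 rose and 6 fell at an adjusted p under 0.05, where 37.7% of all 15818 tested genes were called, 19.4% higher and 18.4% lower. The share of members called was 24.1%, below that of all genes, and the members' median log2 fold change was 0.0099 against -0.0017 over all genes. When libraries were rescaled to the same total the split became 9 higher and 17 lower, beside 16.2% higher and 25.9% lower of all genes under that scaling, so all genes turned the same way. With median-of-ratios rescaling it was 14 higher and 9 lower, beside 21% and 19.7%. Without IAA replicate 1 it was 5 higher and 5 lower, without untreated replicate 1 it was 7 higher and 6 lower, and without untreated replicate 2 it was 8 higher and 4 lower. The 4 members that rose most were Ndufs8, Cox6a1, Cox5b and Atp5g1, and the 4 that fell most were Ndufb7, Atp5g2, Ndufs5 and Ndufb6.

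**Figure D1:**
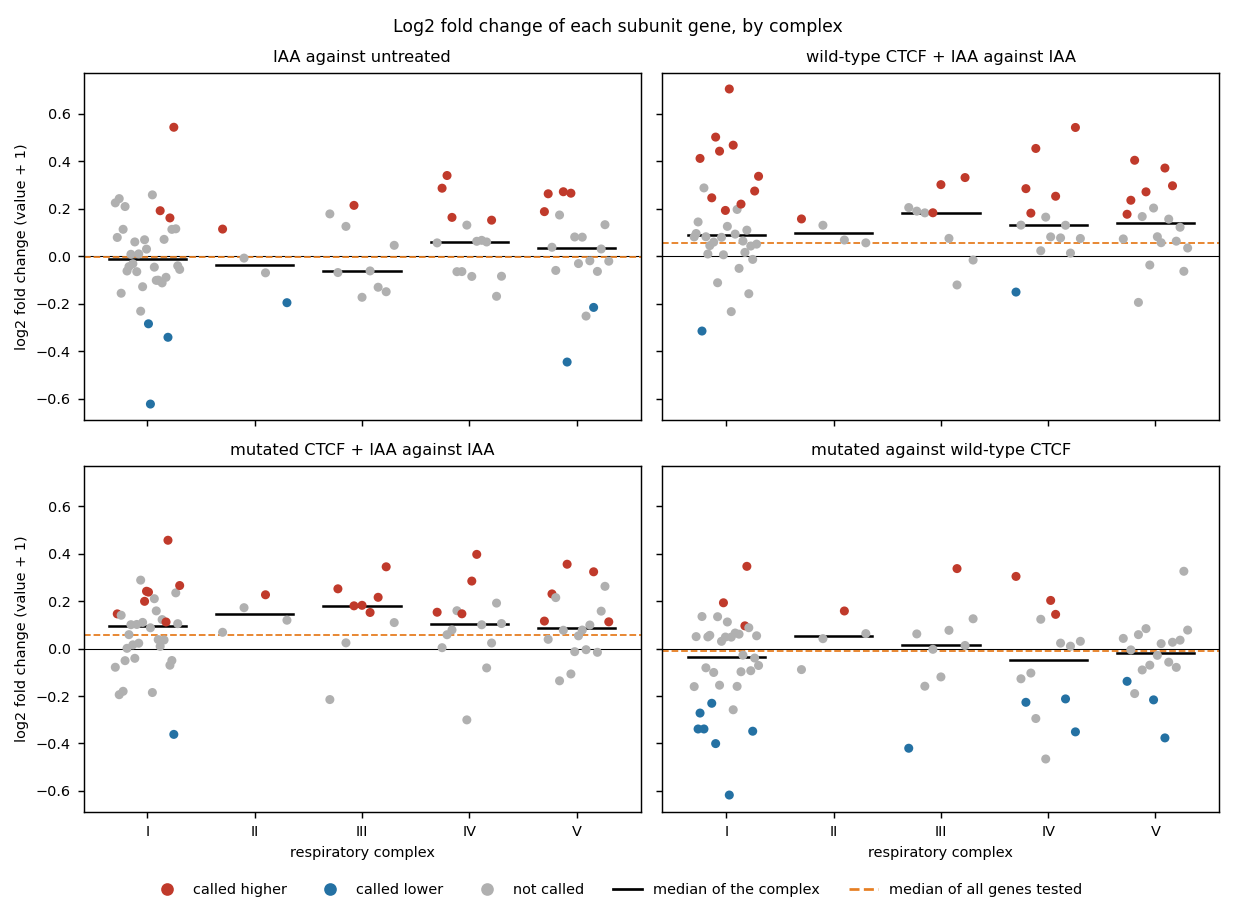
Log2 fold change on the log2(value + 1) scale (vertical axis) of each of the 79 subunit genes, grouped by respiratory complex (horizontal axis) in 4 comparisons. Each point is a gene, red where called higher, blue where called lower and grey where not called; black lines mark the median of a complex and the orange dashed line the median of all tested genes. With IAA 13 genes are red and 6 blue, while with wild-type CTCF 25 are red and 2 blue.

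The plot of fold changes by complex shows IAA calls in each of the 5 complexes. Complex I had 3 genes higher and 3 lower of 34, complex II had 1 of each of 4, and complex III had 1 higher of 9. Complex IV had 4 higher and 0 lower of 14, and complex V had 4 higher and 2 lower of 18. Leaving out IAA replicate 1 lost calls in each of the 5 complexes. Untreated replicate 1 did so in complexes I, II, IV and V, and untreated replicate 2 in complexes I, III and IV. Calls over all genes also fell in these runs.

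The c ring of the ATP synthase, the rotor that protons turn, is built from a single mature protein that Atp5g1, Atp5g2 and Atp5g3 all encode, each with a different targeting sequence that is removed. With IAA the 3 paralogs moved in different directions. Atp5g2 gave 1642 and 1673 normalized reads in the untreated libraries, 1213 and 1221 with IAA, 1373 and 1572 with wild-type CTCF, and 1482 and 1636 with mutated CTCF. Both IAA libraries lay below the other 6, and Atp5g2 fell by 0.45 on the log2 scale (SE 0.056, adjusted p = 1.93e-08). Atp5g1 gave 340.2 and 353 reads untreated, 438 and 399 with IAA, 434 and 508 with wild-type CTCF, and 421 and 463 with mutated CTCF. Its untreated libraries were the lowest of the 8, and it rose by 0.27 with IAA (SE 0.085, adjusted p = 0.00968). Atp5g3 gave 716 and 749 reads untreated, 948 and 818 with IAA, 797 and 924 with wild-type CTCF, and 879.7 and 760.2 with mutated CTCF. It rose by 0.27 with IAA (SE 0.073, adjusted p = 0.00338), again with the untreated libraries lowest. The rise of Atp5g1 was 0.20 (adjusted p = 0.144) without IAA replicate 1 and 0.25 (adjusted p = 0.101) without untreated replicate 1, and that of Atp5g3 was 0.16 (adjusted p = 0.184) and 0.23 (adjusted p = 0.082), whereas Atp5g2 kept its call with any library left out. Without the mean-variance trend in the test, Atp5g2 kept the call (adjusted p = 0.017), while Atp5g1 (adjusted p = 0.099) and Atp5g3 (adjusted p = 0.158) lost it. Processed copies of these genes exist elsewhere in the genome, and how reads shared with them were counted is not given in the sources used here.

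The promoters of the 3 c-ring genes are shown because the paralogs share a product and differ in response. Each is the 300 bases from 250 before to 50 after the RefSeq start on GRCm38.p6, read on the gene's strand, and capitals mark matches to the letters searched on both strands: GCGC, any 1 base and TGCGC for NRF1, CCGGAAG for the ETS family of GABPA, AAGATGGCG for YY1, and CC, any 3 bases, AGG, any 1 base and GGC for the core of CTCF's motif. For Atp5g2 the RefSeq start lies 1305 bp from the GENCODE M21 start of the gene. They lie at chr11:96075582-96075881 on the minus strand (Atp5g1), chr15:102670998-102671297 on the minus strand (Atp5g2) and chr2:73911277-73911576 on the minus strand (Atp5g3).
Atp5g1: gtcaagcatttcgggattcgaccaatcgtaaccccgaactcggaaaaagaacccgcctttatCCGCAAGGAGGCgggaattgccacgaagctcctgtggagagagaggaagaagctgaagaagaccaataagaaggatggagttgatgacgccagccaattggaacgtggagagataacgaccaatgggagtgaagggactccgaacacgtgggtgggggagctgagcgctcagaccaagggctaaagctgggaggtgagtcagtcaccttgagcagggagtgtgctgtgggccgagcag
Atp5g2: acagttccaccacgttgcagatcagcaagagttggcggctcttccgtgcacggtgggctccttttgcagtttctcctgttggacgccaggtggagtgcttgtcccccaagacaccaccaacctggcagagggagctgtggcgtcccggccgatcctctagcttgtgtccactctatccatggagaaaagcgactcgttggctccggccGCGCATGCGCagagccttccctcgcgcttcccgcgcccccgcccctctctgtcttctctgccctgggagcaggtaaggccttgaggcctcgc
Atp5g3: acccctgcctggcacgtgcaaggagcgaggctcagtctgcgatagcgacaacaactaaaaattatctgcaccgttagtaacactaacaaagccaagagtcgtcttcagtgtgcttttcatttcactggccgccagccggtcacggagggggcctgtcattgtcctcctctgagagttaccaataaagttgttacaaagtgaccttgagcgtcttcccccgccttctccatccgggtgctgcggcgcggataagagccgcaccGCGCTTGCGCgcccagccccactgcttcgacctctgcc
The window of Atp5g1 holds the CTCF letters at positions -188 to -177 from the start, those of Atp5g2 and Atp5g3 hold the NRF1 letters, and a match is a description of the sequence, not a bound site.

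In complex V, Atp5b gave 3338 and 3530.1 reads untreated and 4231 and 4012 with IAA, and rose by 0.26 (SE 0.048, adjusted p = 2.15e-05). Its partner in the F1 head, Atp5a1, gave 2675 and 2777 untreated and 3139 and 3071 with IAA, and rose by 0.19 (SE 0.043, adjusted p = 0.000512). For both genes each IAA library lay above each untreated one, and both kept the call with any library left out but lost it without the mean-variance trend (adjusted p = 0.089 for Atp5b and 0.08 for Atp5a1). Atp5md, a small membrane subunit linked to dimers of the synthase, went the other way, from 767 and 765 reads untreated to 681 and 639 with IAA, a fall of 0.22 (SE 0.062, adjusted p = 0.00514) that was 0.17 (adjusted p = 0.085) without IAA replicate 2.

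Among complex I genes, Ndufb7, an accessory subunit of the membrane arm, had the largest fall of the 79 members with IAA. It gave 148 and 141 reads untreated, 95.3 and 91.3 with IAA, 126 and 185 with wild-type CTCF, and 88.8 and 111 with mutated CTCF. The IAA libraries lay below both untreated ones, and the fall was 0.62 on the log2 scale (SE 0.153, adjusted p = 0.00114), a call that stood with any library left out and was lost without the mean-variance trend (adjusted p = 0.071). Its promoter window is shown because the gene had the largest fall, at chr8:83566508-83566807 on the plus strand of GRCm38.p6. Here capitals mark the ETS letters CCGGAAG near the start and the CTCF core without its last letter at positions -94 to -84, a form searched only after this window had been read.
Ndufb7: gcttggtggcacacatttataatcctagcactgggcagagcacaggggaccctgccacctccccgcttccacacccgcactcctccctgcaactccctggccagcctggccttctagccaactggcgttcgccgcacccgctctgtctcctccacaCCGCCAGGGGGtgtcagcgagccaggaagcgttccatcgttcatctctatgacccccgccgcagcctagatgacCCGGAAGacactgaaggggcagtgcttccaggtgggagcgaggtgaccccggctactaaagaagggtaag
This form of 11 positions was found in 18.2% of the 66 genes with a window and in 10.7% of all 27025 genes with one. The full core of 12 positions was found in 7.58% against 3.96%. The 66 genes include Ndufb7, whose window prompted the shorter form, and the 27025 are not limited to genes listed here.

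Ndufs8, a core iron-sulphur subunit on the path to ubiquinone, was the member that rose most with IAA, from 120.4 and 97.4 reads untreated to 149 and 168. The groups did not overlap and the rise was 0.54 (SE 0.134, adjusted p = 0.00123), but 0.39 (adjusted p = 0.075) without untreated replicate 2. Ndufs1, the largest core subunit of the NADH-oxidising arm, went from 2069.6 and 2137 to 2417 and 2388, a rise of 0.19 (SE 0.043, adjusted p = 0.000381) that stood with any library left out. Its gene overlaps the listed genes Eef1b2 and Ino80dos on the opposite strand. With IAA Eef1b2 rose by 0.20 (SE 0.048, adjusted p = 0.00103), and the log2 fold change of Ino80dos was -0.056 (adjusted p = 0.563). Ndufs5, an accessory subunit, fell from 151 and 161 reads to 126 and 119.9, by 0.34 (SE 0.128, adjusted p = 0.0324). That call was lost when any of the 4 libraries compared was left out, with adjusted p of 0.063 to 0.195. Ndufb6, another membrane-arm accessory subunit, fell from 459 and 506 reads to 404 and 387, by 0.28 (SE 0.079, adjusted p = 0.00362), and by 0.21 (adjusted p = 0.113) without untreated replicate 2.

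In complex IV, Cox6a1, the widely expressed isoform of a regulatory subunit, rose from 421 and 378 reads untreated to 489.6 and 522 with IAA. The rise was 0.34 (SE 0.075, adjusted p = 0.000315) and stood with any library left out. Cox5b, a subunit on the matrix side, rose from 377 and 392 reads to 488 and 451, by 0.29 (SE 0.077, adjusted p = 0.00287), and by 0.23 (adjusted p = 0.064) without IAA replicate 1. Without untreated replicate 1 the Cox5b rise was 0.26 (adjusted p = 0.05). Cox6b1 and Cox7c rose as well, by 0.16 and 0.15 (adjusted p = 0.0376 and 0.0301), and both lost the call without IAA replicate 1, at 0.13 (adjusted p = 0.244) and 0.12 (adjusted p = 0.217), and without either untreated replicate.

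All 4 succinate dehydrogenase subunits, which form both complex II and an enzyme of the citric acid cycle, were followed in each group. Sdha, the flavoprotein that oxidises succinate, gave 2258 and 2435 reads untreated, 2593 and 2486 with IAA, 2704 and 2964 with wild-type CTCF, and 2628 and 2698 with mutated CTCF. Sdhb, the iron-sulphur subunit, gave 505 and 486, then 466 and 521, 551 and 528, and 514 and 600.1 in the same order. For the membrane anchors, Sdhc gave 929 and 924, 886 and 879, 901 and 950.0, and 1039.6 and 1026, and Sdhd gave 822 and 801, 696 and 722, 712 and 763, and 777 and 762. With IAA Sdhd fell by 0.20 (SE 0.063, adjusted p = 0.012) and Sdha rose by 0.11 (SE 0.046, adjusted p = 0.0469), so subunits of the same complex moved apart. Both calls were lost without IAA replicate 1, at -0.17 and 0.08, and without untreated replicate 1, at -0.18 and 0.06. Sdha also lost the call without IAA replicate 2, at 0.14. The fall of Sdhd thus changed little in size in these runs. The log2 fold changes of Sdhb and Sdhc with IAA were -0.0078 and -0.07 and did not pass the test.

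Wild-type CTCF on top of IAA was compared with IAA alone, which asks how transcription under IAA differs when additional wild-type CTCF is expressed. Control, wild-type and mutated CTCF are separate lines, so in each comparison between them the line and the added CTCF cannot be told apart. The control with IAA serves both this comparison and the one above, so opposite signs in the 2 comparisons are not independent, and values against untreated cells are given where a gene is followed through. Of the 79 members, 25 rose and 2 fell, where 31.6% of all tested genes were called, 21.5% in the higher direction and 1584 genes in the lower. The share of members called was 34.2%, close to that of all genes, and the median log2 fold change was 0.12 against 0.057. Without wild-type CTCF replicate 2 the calls were 11 higher and 3 lower, and with median-of-ratios rescaling 18 higher and 6 lower, beside 16.1% higher and 15.9% lower of all genes.

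By complex, genes higher with wild-type CTCF numbered 10 of 34 in complex I, with 1 lower, 1 of 4 in complex II, 3 of 9 in complex III, 5 of 14 in complex IV, with 1 lower, and 6 of 18 in complex V. Without wild-type CTCF replicate 2 they were 3 in complex I, with 2 lower, 0 in complex II, 2 in complex III, 3 in complex IV, with 1 lower, and 3 in complex V. Ndufb7 rose most, by 0.70 (SE 0.153, adjusted p = 0.000437), and by 0.43 (adjusted p = 0.071) without wild-type CTCF replicate 2, whose 185 reads stood well above the 126 of replicate 1. Against untreated cells its difference was 0.08 (adjusted p = 0.694) with wild-type CTCF and -0.54 (SE 0.153, adjusted p = 0.00485) with mutated CTCF. Cox8a, a small membrane subunit of complex IV, gave 546 and 508 reads untreated, 417 and 526 with IAA, 685 and 680.4 with wild-type CTCF, and 488 and 586 with mutated CTCF. Its wild-type CTCF libraries were the highest of the 8, and the rise was 0.54 (SE 0.085, adjusted p = 3.79e-06), a call that stood with any library left out. Without the mean-variance trend the rises of Ndufb7 (adjusted p = 0.068) and Cox8a (adjusted p = 0.054) no longer passed.

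Ndufb10, an accessory subunit of the membrane arm, gave 112 and 122 reads untreated, 125 and 100.1 with IAA, 136 and 185 with wild-type CTCF, and 133 and 109 with mutated CTCF. Its rise with wild-type CTCF was 0.50 (SE 0.149, adjusted p = 0.00875), but 0.28 (adjusted p = 0.261) without wild-type CTCF replicate 2 and 0.34 (adjusted p = 0.165) without IAA replicate 2. Ndufb9, another membrane-arm subunit, rose from 152 and 157 reads with IAA to 209 and 220.4, by 0.47 (SE 0.115, adjusted p = 0.00172), with any library left out. Its gene overlaps the listed gene Gm49356 on the same strand, whose log2 fold change was 0.0026 (adjusted p = 0.989). Ndufa12, an accessory subunit, rose from 424 and 459 reads to 589 and 585, by 0.41 (SE 0.074, adjusted p = 3.1e-05), also with any library left out.

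The 2 members that fell with wild-type CTCF were Ndufa2 and Cox5a. Ndufa2, an accessory subunit of the matrix arm, went from 268 and 232 reads with IAA to 193 and 208, a fall of 0.32 (SE 0.105, adjusted p = 0.0189) that was 0.21 (adjusted p = 0.238) without IAA replicate 1 and 0.26 (adjusted p = 0.107) without wild-type CTCF replicate 1. Cox5a, a matrix-side subunit of complex IV, gave 2351 and 2455 reads untreated, 2481 and 2515 with IAA, 2221 and 2279 with wild-type CTCF, and 2802 and 2754 with mutated CTCF. Its wild-type CTCF libraries were the lowest of the 8 and its mutated CTCF libraries the highest. The fall with wild-type CTCF was 0.15 (SE 0.043, adjusted p = 0.00571), and 0.14 (adjusted p = 0.055) without IAA replicate 2. Without the mean-variance trend Ndufa2 and Cox5a lost the call (adjusted p = 0.057 and 0.084).

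**Figure D2:**
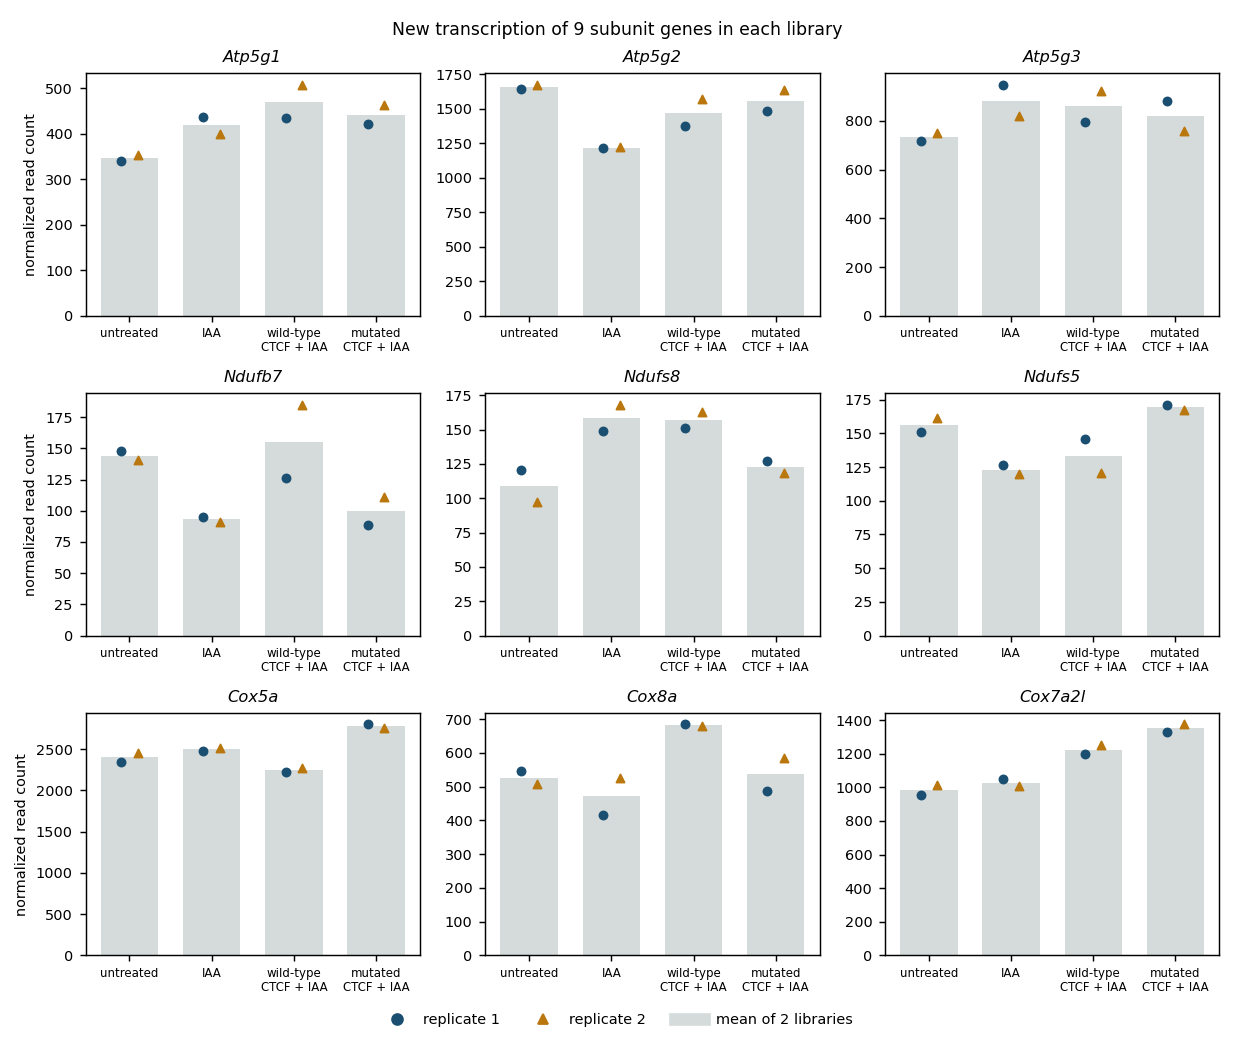
Normalized read counts (vertical axis, from 0) of 9 subunit genes in the 4 groups (horizontal axis). Circles and triangles are replicates 1 and 2 and bars their mean. Atp5g2 is lowest in the 2 IAA libraries (1213 and 1221), whereas Atp5g1 is lowest in the untreated ones (340.2 and 353), and Cox5a is highest with mutated CTCF (2802 and 2754).

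Mutated CTCF on top of IAA was compared with the same IAA libraries. Of the 79 members, 23 rose and 1 fell, where 34.3% of all tested genes were called, 22.0% higher and 12.4% lower. The share of members called was 30.4% and the median log2 fold change 0.10 against 0.055. With median-of-ratios rescaling the split was 15 higher and 3 lower, beside 17.1% higher and 17.0% lower of all genes, and without mutated CTCF replicate 2 it was 13 higher and 0 lower. Genes called higher were 7 of 34 in complex I, with 1 lower, 1 of 4 in complex II, 6 of 9 in complex III, 4 of 14 in complex IV and 5 of 18 in complex V. The complex III count was 1 of 9 without mutated CTCF replicate 2, 3 of 9 without IAA replicate 2, and 3 of 9 with 1 lower under median-of-ratios rescaling. For complex I the count was 3 higher and 0 lower without mutated CTCF replicate 2. Under median-of-ratios rescaling Cox6c of complex IV and Atp5a1 and Atp5pb of complex V lost the call. Atp5a1 and Atp5pb also lost it without either IAA replicate and without mutated CTCF replicate 1. No complex was tested against another.

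Ndufs5 rose most with mutated CTCF, from 126 and 119.9 reads with IAA to 171 and 167, by 0.46 (SE 0.128, adjusted p = 0.00466). Cox7a2l, the factor that holds complexes III and IV together in supercomplexes, gave 955 and 1013 reads untreated, 1049 and 1006 with IAA, 1200.3 and 1249.5 with wild-type CTCF, and 1332 and 1375 with mutated CTCF. Its 4 libraries with added CTCF all lay above the 4 without it, and it rose by 0.25 with wild-type CTCF (SE 0.055, adjusted p = 0.000431) and by 0.40 with mutated CTCF (adjusted p = 2.58e-07). Atp5g2 rose by 0.27 with wild-type CTCF (adjusted p = 0.00023) and by 0.36 with mutated CTCF (adjusted p = 2.89e-06). The calls of these 3 genes with mutated CTCF stood with any library left out and without the mean-variance trend, which ended the call of Atp5g2 with wild-type CTCF (adjusted p = 0.083).

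Uqcrh, the hinge subunit of complex III that helps cytochrome c dock, gave 660.3 and 704 reads untreated, 613 and 616 with IAA, 733 and 816 with wild-type CTCF, and 783 and 779 with mutated CTCF. The IAA libraries were the lowest and the rise was 0.33 with wild-type CTCF (SE 0.066, adjusted p = 0.000143) and 0.34 with mutated CTCF (adjusted p = 6.16e-05), each standing with any library left out. Ndufs8 was the member that fell, from 149 and 168 reads with IAA to 127 and 119 with mutated CTCF, by 0.36 (SE 0.134, adjusted p = 0.0335). That fall was 0.27 (adjusted p = 0.228) without IAA replicate 2, 0.41 (adjusted p = 0.053) without mutated CTCF replicate 1 and 0.31 (adjusted p = 0.17) without mutated CTCF replicate 2. Sdhc rose by 0.23 (SE 0.057, adjusted p = 0.00176), standing with any library left out, while Sdhb (0.17), Sdhd (0.12) and Sdha (0.07) did not pass the test.

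Members called higher by both forms of CTCF numbered 9, and 1, Cox5a, was called in opposite directions. Of these 9, Ndufb5, Ndufv3, Uqcrb and Uqcrc1 lost the mutated CTCF call without mutated CTCF replicate 2, where the rise of Uqcrc1 was 0.07 in place of 0.18. Ndufb5 and Uqcrb also lost the wild-type CTCF call without wild-type CTCF replicate 2. Lower with IAA and higher with both forms were 2 members, Atp5g2 and Atp5md, and the IAA call of Atp5md was lost without IAA replicate 2, at -0.17. The shares of all genes with such joint calls are not given. Because the IAA libraries enter the differences with IAA and with both forms, the untreated cells are the better reference. Against them Atp5g2 was lower by 0.17 with wild-type CTCF (log2 fold change -0.17, adjusted p = 0.0106), where the log2 fold change with mutated CTCF was -0.09 (adjusted p = 0.211). For Atp5md the same differences were 0.08 (adjusted p = 0.3) and 0.11 (adjusted p = 0.175). The wild-type CTCF libraries of Atp5g2 were uneven (mean 1472, SD 141), replicate 1 lying further below the untreated ones. Its difference from untreated cells therefore depends on single libraries. Set against untreated cells, wild-type CTCF gave 33 members higher and 2 lower, where 43.2% of all genes were called, 27.6% higher and 15.6% lower. With mutated CTCF 23 were higher and 1 lower than untreated, where 37.8% of all genes were called, 24.0% higher and 13.7% lower. Of all genes 20.4% were higher and 24.4% lower, and 16.4% higher and 21.6% lower, with the same total in each library. With median-of-ratios rescaling those shares were 23.1% higher and 21.5% lower, and 19.8% higher and 18.3% lower. With the same total the splits of the members became 22 higher and 9 lower, and 16 higher and 4 lower. With median-of-ratios rescaling they were 26 higher and 7 lower, and 18 higher and 3 lower, and without wild-type CTCF replicate 2 the first was 20 higher and 3 lower. Without untreated replicate 1 it was 21 higher and 1 lower.

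By complex, 12 of 34 genes (I), 1 of 4 (II), 4 of 9 (III) and 7 of 18 (V) were above untreated cells with wild-type CTCF. With mutated CTCF these were 6, 2, 2 and 5. Lower were 1 gene each in complexes III and V with wild-type CTCF and 1 in complex I with mutated CTCF. In complex IV 9 of 14 genes were above untreated cells with wild-type CTCF and 8 of 14 with mutated CTCF, with 0 lower. These counts were 6 without wild-type CTCF replicate 2 and 5 without mutated CTCF replicate 2. Cox6a1 showed the largest of these differences, 0.63 (SE 0.075, adjusted p = 6.92e-09) with wild-type CTCF, whose libraries held 605 and 628 reads, and 0.40 (adjusted p = 3.69e-05) with mutated CTCF, at 523 and 529.9 reads. Atp5b was higher by 0.44 (adjusted p = 6.83e-10) and 0.30 (adjusted p = 2.17e-06). Uqcrb, a small complex III subunit at the ubiquinone site, was higher by 0.40 (adjusted p = 1.04e-06) and 0.39 (adjusted p = 1.38e-06), with 706 and 668 reads untreated against 898 and 913, and 906 and 901. Untreated cells and both lines with added CTCF differ in IAA, line and added CTCF at once. The differences from untreated cells therefore cannot be told apart from differences between lines.

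The 2 forms of CTCF were then compared directly. Mutated CTCF gave 8 members higher and 14 lower than wild-type CTCF, where 34.7% of all tested genes were called, 16.3% higher and 18.4% lower. The share of members called was 27.8% and the median log2 fold change -0.0031 against -0.0087. Without wild-type CTCF replicate 2 the calls were 6 higher and 4 lower, without mutated CTCF replicate 1 they were 3 higher and 5 lower, and without mutated CTCF replicate 2 they were 3 higher and 11 lower. Only Ndufa12, Uqcrfs1, Cox5a and Cox7b2 of the 22 called members kept the call with each of the 8 libraries left out in turn. Without the mean-variance trend 5 kept the call, Cox5a among them (adjusted p = 0.012). The 17 that lost it included Ndufb7, Ndufb10, Atp5k, Ndufs5, Ndufs8, Cox7a2, Cox7a2l and Cox8a. Over all genes the calls fell from 5489 to 3263 without the trend.

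**Figure D3:**
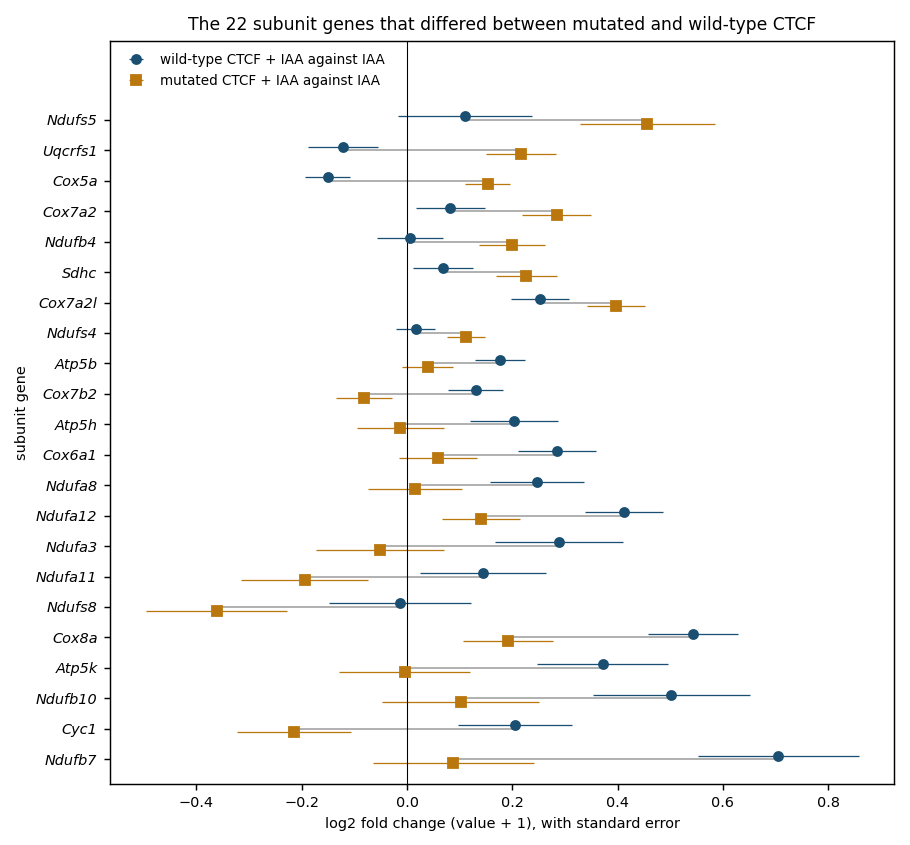
Log2 fold change on the log2(value + 1) scale against IAA alone (horizontal axis, bars are standard errors) of the 22 subunit genes that differed between the 2 forms of CTCF (vertical axis, ordered by that difference). Circles are wild-type and squares mutated CTCF; both use the same IAA libraries. Cox5a lies on opposite sides of 0, at -0.15 and 0.15, and Ndufb7 shows the widest gap, 0.70 against 0.09.

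Cox5a was higher with mutated than with wild-type CTCF by 0.30 (SE 0.043, adjusted p = 3.08e-07), the smallest adjusted p among the members in this comparison. Its rise with mutated CTCF against IAA alone was 0.15 (adjusted p = 0.00423), and did not pass without the mean-variance trend (adjusted p = 0.072). The listed gene Gm26631, which overlaps Cox5a on the opposite strand at a mean of 34.9 reads, differed by 0.44 (SE 0.237, adjusted p = 0.146). The promoter window of Cox5a, at chr9:57520982-57521281 on the plus strand of GRCm38.p6, is shown because this gene had the smallest adjusted p between the 2 forms of CTCF, and it holds none of the letters searched.
Cox5a: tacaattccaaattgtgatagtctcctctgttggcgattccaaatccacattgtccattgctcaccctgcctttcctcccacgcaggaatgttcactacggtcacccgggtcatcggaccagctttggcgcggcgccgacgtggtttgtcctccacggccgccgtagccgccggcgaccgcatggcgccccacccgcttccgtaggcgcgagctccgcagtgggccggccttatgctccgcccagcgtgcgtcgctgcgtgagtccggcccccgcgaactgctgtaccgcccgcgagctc
No match says only that these letters are not in this window.

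Uqcrfs1, the Rieske iron-sulphur subunit of complex III, gave 711 and 742 reads untreated, 671 and 657 with IAA, 577 and 645 with wild-type CTCF, and 766 and 776 with mutated CTCF. The wild-type CTCF libraries were the lowest and the mutated CTCF libraries the highest, a difference of 0.34 (SE 0.066, adjusted p = 9.61e-05). Ndufs5 was higher with mutated CTCF by 0.35 (adjusted p = 0.0323) and Cox7a2 by 0.20 (SE 0.066, adjusted p = 0.0141). The Ndufs5 difference was 0.21 (adjusted p = 0.34) without wild-type CTCF replicate 2, and it also failed without either mutated CTCF library, at 0.33 (adjusted p = 0.13) and 0.36 (adjusted p = 0.081). For Cox7a2 the values were 0.18 (adjusted p = 0.091) without wild-type CTCF replicate 2 and 0.19 (adjusted p = 0.074) without mutated CTCF replicate 2.

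Of the members called, the 4 that were lowest with mutated relative to wild-type CTCF were Ndufb7 (log2 fold change -0.62, SE 0.153, adjusted p = 0.00152), Cyc1 (-0.42, SE 0.109, adjusted p = 0.00229), Ndufb10 (-0.40, SE 0.149, adjusted p = 0.0339) and Atp5k (-0.38, SE 0.125, adjusted p = 0.0164). Cyc1, the cytochrome c1 of complex III, gave 195 and 186 reads untreated, 217 and 214 with IAA, 236 and 262 with wild-type CTCF, and 173 and 199 with mutated CTCF. Atp5k, a small membrane subunit of the ATP synthase, gave 184 and 153, 137 and 144, 173 and 191, and 136 and 144 in the same order. For Cyc1 and Atp5k each wild-type CTCF library lay above each mutated CTCF one. Without wild-type CTCF replicate 2 the differences were -0.34 (adjusted p = 0.148) for Ndufb7, -0.18 (adjusted p = 0.481) for Ndufb10 and -0.30 (adjusted p = 0.136) for Atp5k. Without mutated CTCF replicate 1 those of Cyc1 and Atp5k were -0.32 (adjusted p = 0.062) and -0.33 (adjusted p = 0.104). Ndufb10 also lost its call without either untreated library, at -0.40 (adjusted p = 0.058 and 0.059), and without mutated CTCF replicate 2, at -0.26 (adjusted p = 0.283).

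Paralogs in complex IV were followed beside the c ring. Cox7a2, the widely expressed form, gave 708 and 645 reads untreated, 634 and 640.1 with IAA, 687 and 661 with wild-type CTCF, and 769 and 783 with mutated CTCF. Cox7a1, the form of heart and skeletal muscle, was the member with the lowest mean, with 36.8 and 38.8, 38.1 and 45.1, 47.2 and 46.0, and 32.4 and 34.6 reads, and passed the test in none of the 6 comparisons. Its log2 difference between mutated and wild-type CTCF was -0.47 with an SE of 0.223 (adjusted p = 0.103). Cox6b1, the common form of a subunit facing the intermembrane space, gave 724 and 703 reads untreated, 821 and 779 with IAA, 879 and 935 with wild-type CTCF, and 804 and 886 with mutated CTCF. Cox6b2, its testis form, gave 109 and 89.7, 107 and 83.6, 117 and 144, and 100.3 and 112. With wild-type CTCF Cox6b1 rose by 0.18 (adjusted p = 0.025) and Cox6b2 by 0.45 (SE 0.156, adjusted p = 0.0229), and both calls were lost without wild-type CTCF replicate 2, at 0.14 (adjusted p = 0.203) and 0.30 (adjusted p = 0.261), and without IAA replicate 2, at 0.14 (adjusted p = 0.187) and 0.28 (adjusted p = 0.285). Cox6a2, Cox8b, Cox8c and Cox4i2 were not analysed here.

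Across the 6 comparisons 56 members were called at least once (70.9%), 23 never and 0 in all 6. Of all tested genes 73.3% were called at least once and 1.62% in all 6. Those never called include the core subunits Ndufs3, Ndufs7 and Ndufv2, the iron-sulphur subunit Sdhb, Uqcrq, Ndufa4, and Atp5j, Atp5l and Atp5mpl of the ATP synthase. Atp5o was not called under either gene ID. The largest change of any member in the 4 main comparisons, the rise of Ndufb7 with wild-type CTCF, was 1.63-fold. Without wild-type CTCF replicate 2 that rise was 0.43 on the log2 scale, smaller than the fall of 0.62 of the same gene with IAA.

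The members tend to have short genes, which their names did not fix. Their median gene length was 7284 bp, against 27413 bp for the protein-coding genes listed, although 16 of the 79 exceeded 15 kb. With mutated relative to wild-type CTCF, 1 of the 26 members under 5 kb was higher and 10 were lower, with a median log2 fold change of -0.16. Without wild-type CTCF replicate 2 these calls were 0 higher and 2 lower, without mutated CTCF replicate 1 they were 1 higher and 3 lower, and without mutated CTCF replicate 2 they were 0 higher and 6 lower. Among 37 members of 5 to 15 kb 4 were higher and 2 lower (median 0.021), and among 16 longer members 3 were higher and 2 lower (median 0.052). Protein-coding genes under 5 kb showed much the same median, -0.15, with 3.33% called higher and 21.8% lower of 1170. Those of 5 to 15 kb had a median of -0.055, with 8.87% higher and 17.4% lower, and longer ones a median of 0.0030, with 20.4% higher and 20.9% lower. With mutated CTCF against IAA alone the calls leaned higher in each length class: 3 higher and 1 lower under 5 kb, 13 higher and 0 lower from 5 to 15 kb, and 7 higher and 0 lower above. Some of these calls were lost when a library was left out, mutated CTCF replicate 2 among them. Protein-coding genes of the same classes had 7.35% higher and 9.57% lower, 20.9% higher and 5.54% lower, and 27.3% higher and 16.2% lower. The difference between length classes and the part that length plays were not tested.

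**Figure D4:**
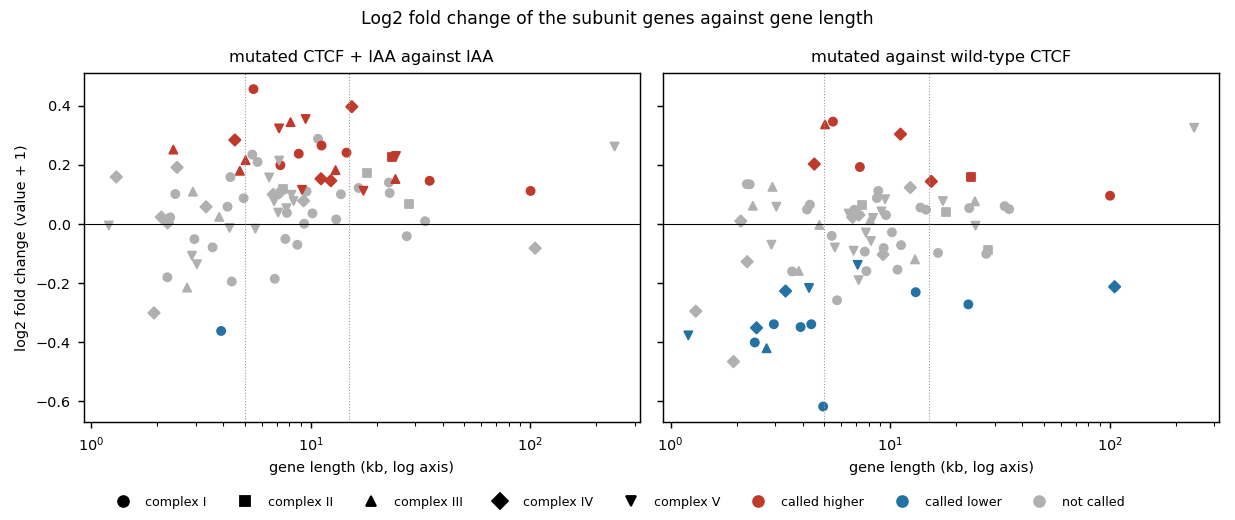
Log2 fold change on the log2(value + 1) scale (vertical axis) against gene length in kb (horizontal log axis) for the 79 subunit genes, with mutated CTCF against IAA alone (left) and against wild-type CTCF (right). Symbols give the complex and colours the call, and dotted lines mark 5 and 15 kb. On the right, 10 of the 26 genes under 5 kb are called lower and 1 higher.

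With IAA the 26 short members had a median of 0.12, with 6 higher and 1 lower, and with wild-type CTCF a median of 0.15, with 7 higher and 1 lower. Short protein-coding genes had medians of 0.078, with 18.6% higher and 9.06% lower, and 0.14, with 19.3% higher and 4.44% lower. Without IAA replicate 1 the IAA calls among short members were 2 higher and 1 lower, and without wild-type CTCF replicate 2 the wild-type CTCF calls were 2 higher and 1 lower. Against untreated cells, 14 of the 26 were higher and 0 lower with wild-type CTCF, and 5 were higher and 1 lower with mutated CTCF. Among short protein-coding genes 30.6% were higher and 6.75% lower with wild-type CTCF, and 16.4% higher and 8.89% lower with mutated CTCF. Without wild-type CTCF replicate 2 the first count was 6 higher and 0 lower, and without untreated replicates 1 and 2 in turn it was 9 and 8 higher. Over the 79 members Spearman's rho between gene length and log2 fold change was 0.31 for mutated CTCF against IAA and 0.30 for mutated against wild-type CTCF, but -0.18 with IAA, -0.088 with wild-type CTCF, and -0.22 and 0.089 for wild-type and mutated CTCF against untreated cells. Over all genes the values in the same order were -0.104 and -0.00136, then 0.0365 and -0.105, and -0.037 and -0.0526. These values describe genes measured in the same libraries.

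RefSeq promoter windows were matched by symbol for 67 of the 79 rows, or 66 genes. The NRF1 letters were found in 25.8% of them, against 5.19% of all 27025 genes with a window, and the ETS letters in 25.8% against 9.93%. The YY1 letters were found in 10.6% against 1.64%. Of the 66 genes, 35 held at least 1 of these 3 (53.0% against 15.1%). The 27025 genes are all RefSeq genes with a window and are not limited to those listed here. Whether these shares are particular to the members, rather than common among transcribed genes, was not tested.

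Many members share a promoter region with a gene that runs the other way. Of the 79 rows, 19 (24.1%) had a listed divergent gene whose start lay within 1000 bp, compared with 12.3% of 13663 listed protein-coding genes. With IAA the 2 genes of such a pair had the same sign in 6 of 19 pairs, with wild-type CTCF in 10, with mutated CTCF in 14 and between the 2 forms in 11. Both genes were called in the same direction in 0, 3, 0 and 0 pairs and in opposite directions in 2, 1, 1 and 0. The share among all divergent pairs is not given, so these counts have no reference. Sdha and Ccdc127, whose starts lie 29 bp apart, moved in opposite directions with IAA: Sdha rose by 0.11 while Ccdc127 fell by 0.39 (SE 0.061, adjusted p = 1.77e-06). With mutated CTCF the log2 fold change of Sdha was 0.07 and did not pass the test, while Ccdc127 rose by 0.43 (adjusted p = 3.67e-07). Ndufa2 fell with wild-type CTCF while its neighbour Ik, 99 bp away, rose by 0.28 (SE 0.062, adjusted p = 0.000608). Atp5c1, the gamma subunit of the rotor shaft, rose by 0.24 (SE 0.04, adjusted p = 1.34e-05) together with Kin, 83 bp away, which rose by 0.38 (SE 0.087, adjusted p = 0.00078). These neighbours were singled out after their values were seen.

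Subunits need assembly factors, chaperones that insert cofactors and join modules without staying in the finished complex, and 51 such genes were tested. With IAA 3 rose and 14 fell (median log2 fold change -0.12), with wild-type CTCF 14 rose and 1 fell (0.12), and with mutated CTCF 17 rose and 2 fell (0.19). Mutated against wild-type CTCF gave 6 higher and 4 lower. The shares called were 33.3%, 29.4%, 37.3% and 19.6%, beside 37.7%, 31.6%, 34.3% and 34.7% of all genes. Without untreated replicate 2 the IAA calls were 3 higher and 7 lower, and without wild-type CTCF replicate 2 those of the wild-type CTCF comparison were 10 higher and 0 lower. With mutated CTCF they were 12 higher and 0 lower without IAA replicate 2, and 13 higher and 0 lower without mutated CTCF replicate 1. Between the 2 forms of CTCF the calls without wild-type CTCF replicate 2, and those without mutated CTCF replicate 1, were 4 higher and 0 lower. They were 2 higher and 4 lower without mutated CTCF replicate 2 and 4 higher and 5 lower without wild-type CTCF replicate 1, so the balance between the 2 directions rested on single libraries. With the same total in each library the IAA split was 3 higher and 21 lower, and with median-of-ratios rescaling it was 6 higher and 15 lower. The latter scaling gave 13 higher and 4 lower with wild-type CTCF (median 0.062) and 13 higher and 3 lower with mutated CTCF (0.139). Of all genes 16.1% were then higher and 15.9% lower, and 17.1% and 17%.

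Fmc1, an assembly factor of the F1 head, gave 222 and 233 reads untreated, 108 and 100.1 with IAA, 156 and 165 with wild-type CTCF, and 112 and 127 with mutated CTCF. The groups with and without IAA did not overlap, the fall with IAA was 1.12 on the log2 scale (SE 0.126, adjusted p = 1.63e-09), and it stood with any library left out. It rose by 0.62 with wild-type CTCF (adjusted p = 0.00021), while the log2 fold change with mutated CTCF was 0.19 (adjusted p = 0.258). The direct difference was -0.43 (adjusted p = 0.0073), and -0.34 (adjusted p = 0.1) without mutated CTCF replicate 1, and the call was also lost without wild-type CTCF replicate 2. Sdhaf3, which protects the iron-sulphur subunit of complex II during assembly, fell with IAA from 817 and 889.6 reads to 609 and 559.8, by 0.55 (SE 0.068, adjusted p = 1.65e-08). Coa7, a complex IV assembly factor, rose from 542 and 558 reads to 727 and 736, by 0.41 (SE 0.066, adjusted p = 2.51e-06). Both stood with any library left out.

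Further assembly factors were named by the same rule of largest change. With IAA Ndufaf3 (log2 fold change -1.16), Sdhaf4 (-0.42), Tmem70 (-0.29), Nubpl (-0.28), Cox18 (-0.28) and Cox15 (-0.24) fell and Cox10 (0.21) rose, and of these Nubpl and Cox10 kept the call with any library left out. Ndufaf3, with 30.1 and 28.4 reads untreated and 9.53 and 16.5 with IAA, was at -0.79 (adjusted p = 0.073) without IAA replicate 1. Without untreated replicate 2 Cox18 was at -0.21 (adjusted p = 0.073) and Cox15 at -0.17 (adjusted p = 0.193), without untreated replicate 1 Sdhaf4 was at -0.36 (adjusted p = 0.099), and without IAA replicate 2 Tmem70 was at -0.20 (adjusted p = 0.107). With wild-type CTCF Ndufaf3 (1.19), Cox14 (0.58), Ndufaf7 (0.50), Coa5 (0.39), Sdhaf2 (0.31) and Sdhaf3 (0.29) rose, and Coa5, Sdhaf2 and Sdhaf3 kept the call with any library left out. Without IAA replicate 1 the values were 0.82 (adjusted p = 0.074) for Ndufaf3, 0.32 (adjusted p = 0.215) for Cox14 and 0.42 (adjusted p = 0.13) for Ndufaf7. With mutated CTCF Ndufaf6, a complex I factor, rose by 0.34 (SE 0.063, adjusted p = 3.53e-05), and it was 0.30 higher than with wild-type CTCF (adjusted p = 0.00025), both with any library left out. The other genes named by the rule lost the call without at least 1 library. With wild-type CTCF these were Atpaf2 (0.21) and Nubpl (-0.12), with adjusted p up to 0.178 and 0.322. With mutated CTCF they were Coa3 (0.50), Cox14 (0.48), Uqcc2 (0.36), Acad9 (0.27), Sdhaf3 (0.20), Atpaf2 (0.19), Sdhaf2 (0.16), Cox20 (-0.30) and Sdhaf1 (-0.56), with adjusted p rising to between 0.076 (Acad9) and 0.399 (Cox14). Between the 2 forms they were Sdhaf4 (0.32), Tmem70 (0.24), Cox15 (0.24), Cox18 (0.21), Ndufaf2 (-0.15), Sdhaf2 (-0.16) and Tmem126b (-0.25), with adjusted p rising to between 0.128 (Cox15) and 0.381 (Sdhaf4). Nubpl, which delivers iron-sulphur clusters to complex I, was also higher with mutated than with wild-type CTCF, by 0.27 (SE 0.043, adjusted p = 2.5e-06), with 2612 and 2637 reads against 2233 and 2114.

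**Figure D5:**
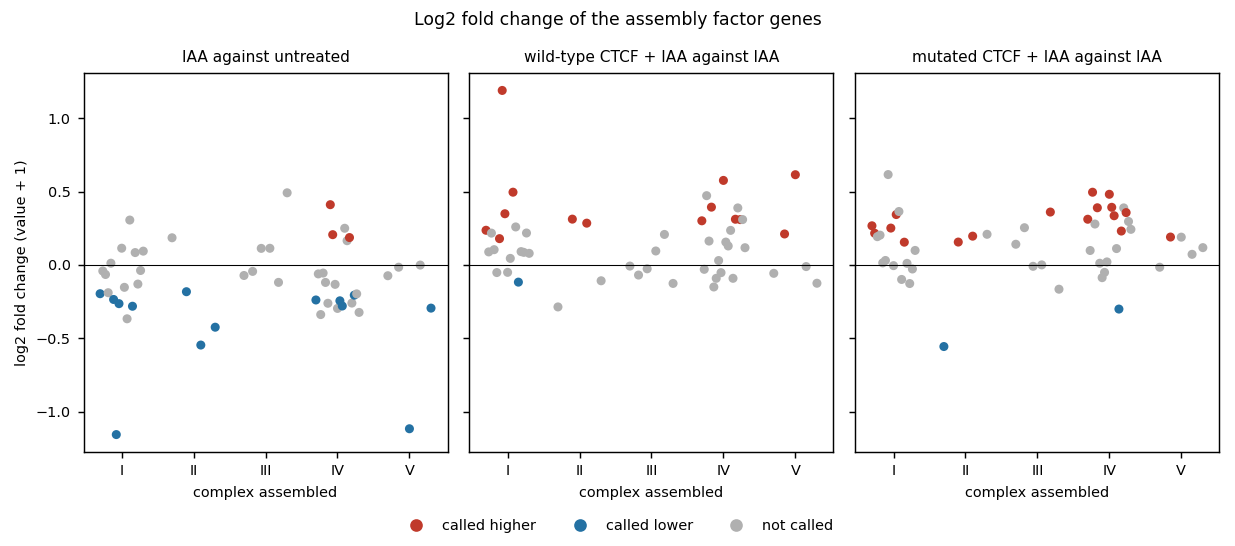
Log2 fold change on the log2(value + 1) scale (vertical axis) of the 51 assembly factor genes, by the complex they help to build (horizontal axis), in 3 comparisons. Each point is a gene, red where called higher, blue where called lower and grey where not called. With IAA 14 points are blue and 3 red, and with mutated CTCF 17 are red and 2 blue.

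The mitochondrial acyl carrier protein Ndufab1, a complex I subunit that the naming rule leaves out, had a larger fall with IAA than any of the 79 members. It gave 882 and 873 reads untreated, 492 and 498 with IAA, 750.1 and 829 with wild-type CTCF, and 689.6 and 715 with mutated CTCF. The groups did not overlap, and the differences were -0.82 with IAA (SE 0.065, adjusted p = 1.51e-13), 0.67 with wild-type CTCF (adjusted p = 1.11e-10) and 0.50 with mutated CTCF (adjusted p = 7.35e-08), each standing with any library left out. Against untreated cells Ndufab1 was at -0.15 with wild-type CTCF (adjusted p = 0.054) and lower with mutated CTCF, at -0.32 (adjusted p = 0.000117). The difference between the 2 forms was -0.17 (adjusted p = 0.0428), and -0.10 (adjusted p = 0.414) without wild-type CTCF replicate 2.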

How the data were processed

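The submitters' processing notes name mm10, Trim Galore, STAR, featureCounts and DESeq2, without versions or roles. The authors deposited normalized read counts, a signal in which each library's values are whole multiples of a single step; that step gave the read numbers quoted, which for mutated CTCF replicate 2 are less certain. Whether counting used strand or introns, and how shared reads were treated, is not given in the sources used here, so the 24 members that overlap other listed genes are less certain. Members, lists and tests were chosen with earlier results of these data known.

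The test was limma 3.58.1 (R 4.3.3) on log2(value + 1) over all 8 libraries with 1 coefficient per group, moderated variances with a mean-variance trend and 4 residual degrees of freedom. The 15818 genes with a mean of at least 10 were adjusted together (Benjamini-Hochberg, threshold 0.05) in each of 6 comparisons. Fold changes on this scale understate low genes. The calculation was tested on simulated data for the IAA comparison, with 50 changed genes at each size. It recovered 6% of 1.15-fold, 56% of 1.3-fold, 94% of 1.5-fold and 100% of 2-fold changes, with 14 false calls. Changes of the smallest size were thus mostly missed.

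Members described singly were, per comparison, the 4 highest and 4 lowest called, the highest and lowest mean per complex, paralogs and the Sdh subunits, and from each accompanying list the 2 highest and 2 lowest called. Others that are given with values (Atp5a1, Atp5b, Atp5c1, Atp5md, Cox6b1, Cox7c, Ndufa12, Ndufs1, Uqcrb) were chosen after their values were seen. Gene positions are from GENCODE M21 and sequences from RefSeq GRCm38.p6. Alternatives were other pseudocounts, filters, scalings and variance models, the replicate block, and leaving out each library. A check for pairing compared deviations of same-numbered libraries from their group means (mean correlation 0.0037).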

Additional observations from a re-analysis of the deposited data

Results flagged for a closer look

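Cox5a was the member called in opposite directions in the lines with wild-type and with mutated CTCF, where line and added CTCF cannot be told apart. Its log2 fold change against IAA alone was -0.15 with wild-type CTCF (adjusted p = 0.00571) and 0.15 with mutated CTCF (adjusted p = 0.00423), and the difference between the forms, tested directly, was 0.304 (SE 0.043, adjusted p = 3.08e-07). Both wild-type CTCF libraries, at 2221 and 2279 normalized reads, lay below the other 6, and both mutated CTCF libraries, at 2802 and 2754, lay above them. The difference kept its call with each of the 8 libraries left out in turn, with a largest adjusted p of 3.21e-05, and without the mean-variance trend (adjusted p = 0.012). The separate calls against IAA alone were less firm: without the trend both were lost (adjusted p = 0.084 and 0.072), and the wild-type CTCF call was lost without IAA replicate 2 (adjusted p = 0.055).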

How the results depend on the processing

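In the 4 main comparisons no called member changed direction under any alternative run. Without a mean-variance trend the members called numbered 8 with IAA, 10 with wild-type CTCF, 11 with mutated CTCF and 6 between the 2 forms. Against untreated cells they numbered 20 and 12 for wild-type and mutated CTCF. Calls over all genes fell as well, to 3946, 2379, 3228, 3263, 4878 and 3869 in the same order. With the trend these were 5967, 4991, 5433, 5489, 6828 and 5975. Using only the 2 groups compared gave 13 members between the 2 forms, beside 4895 of all genes. Rescaling to the same total moved the members' median log2 fold change to -0.041 with IAA, 0.073 with mutated CTCF, and 0.055 and 0.012 for wild-type and mutated CTCF against untreated. Median-of-ratios rescaling moved it to 0.066 with wild-type CTCF, 0.054 with mutated CTCF, and 0.083 and 0.046 against untreated. For mutated CTCF against untreated a pseudocount of 10 gave 0.091 and a minimum mean of 50 gave 0.101.

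Leaving out single libraries gave 10 to 22 called members with IAA (12 without untreated replicate 2, 10 without IAA replicate 1), 14 to 30 with wild-type CTCF (14 without its replicate 2), 13 to 25 with mutated CTCF (13 without its replicate 2) and 8 to 22 between the 2 forms (10 without wild-type replicate 2, 8 and 14 without mutated replicates 1 and 2). Against untreated cells the counts were 22 to 35 for wild-type CTCF (22 without untreated replicate 1, 23 without wild-type replicate 2) and 16 to 26 for mutated CTCF. The medians ran from -0.0004 to 0.033 with IAA, 0.074 to 0.147 with wild-type CTCF, 0.084 to 0.117 with mutated CTCF, -0.051 to 0.037 between the 2 forms, and 0.098 to 0.182 and 0.094 to 0.116 against untreated.

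The correlation of deviations by replicate number was -0.022 to 0.028 over 6 pairs of groups, a check that cannot show a shift common to all genes. Over all genes replicate 2 lay above replicate 1 in each group, by a median log2 difference of 0.026 to 0.050. With the replicate block 23, 32, 24 and 23 members were called in the 4 main comparisons, among them all 19, 27, 24 and 22 called without it. Calls over all genes were then 6423, 5532, 5920 and 5981, against 5967, 4991, 5433 and 5489 without it. The planned edgeR and DESeq2 count tests were not run: the values are whole multiples of a step, but the step of mutated CTCF replicate 2 (0.989) lies too near 1 for its recovered reads to be relied on. With 2 libraries per group, many small changes could not be told from the spread, among them those in members with few reads.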

Other observations

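Nuclear regulators of mitochondrial biogenesis and of mitochondrial DNA expression were followed as a list of 18 tested genes. With IAA 3 rose and 5 fell, with wild-type CTCF 6 rose and 1 fell, with mutated CTCF 9 rose and 1 fell, and mutated against wild-type CTCF gave 4 higher and 1 lower. The shares called were 44.4%, 38.9%, 55.6% and 27.8%, beside 37.7%, 31.6%, 34.3% and 34.7% of all genes. With wild-type CTCF the count was 2 higher and 1 lower without wild-type CTCF replicate 2 and 1 higher and 0 lower without IAA replicate 2. With mutated CTCF it was 5 higher and 1 lower without IAA replicate 1. Between the 2 forms it was 2 higher and 0 lower without mutated CTCF replicate 1. Gabpb1, which encodes the beta subunit of the GABP factor, gave 2683 and 2855 normalized reads untreated, 2119 and 2085 with IAA, 2314 and 2323 with wild-type CTCF, and 2578 and 2558 with mutated CTCF. Its IAA libraries were the lowest, and it fell by 0.40 with IAA (adjusted p = 6.56e-10) and rose by 0.29 with mutated CTCF (adjusted p = 1.14e-06), both with any library left out. Polg, the mitochondrial DNA polymerase, rose with IAA from 615 and 682 reads to 816 and 847, by 0.36 (adjusted p = 2.14e-05), Pprc1, a coactivator of the PGC-1 family, rose by 0.30 (adjusted p = 1.59e-05), and Tefm, a mitochondrial transcription elongation factor, fell by 0.40 (adjusted p = 0.000141). Ppargc1b, another PGC-1 family coactivator, gave 1861 and 1917 reads with IAA and 1401 and 1553 with mutated CTCF, and fell by 0.36 (adjusted p = 3.27e-07). Each of these 4 calls stood with any library left out. Polg2, the accessory subunit of the polymerase, was higher with mutated than with wild-type CTCF by 0.36 (adjusted p = 0.00251) and Yy1 rose with wild-type CTCF by 0.21 (adjusted p = 7.68e-05), both with any library left out. Twnk (0.36) and Ppargc1b (-0.17) with wild-type CTCF, Mterf1a (0.31) and Tefm (0.30) with mutated CTCF, and Tefm (0.26) and Ppargc1b (-0.19) between the 2 forms passed the test but lost the call without at least 1 library, with adjusted p rising to between 0.072 (Twnk) and 0.304 (Mterf1a).

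Among 15 tested genes for mobile carriers and coenzyme Q synthesis, 1 rose and 5 fell with IAA, 4 rose and 0 fell with wild-type CTCF, and 7 rose and 3 fell with mutated CTCF. Mutated against wild-type CTCF gave 2 higher and 5 lower. The shares called were 40% and 26.7% with IAA and wild-type CTCF and 66.7% and 46.7% in the other two, beside 37.7%, 31.6%, 34.3% and 34.7% of all genes. With IAA the count was 1 higher and 1 lower without untreated replicate 2, and with wild-type CTCF it was 2 higher and 0 lower without wild-type CTCF replicate 2 and without each of IAA replicate 1 and the untreated replicates. With mutated CTCF it was 5 higher and 1 lower without IAA replicate 2 and 4 higher and 2 lower without mutated CTCF replicate 2. Between the 2 forms it was 1 higher and 3 lower without mutated CTCF replicate 1 and 0 higher and 4 lower without mutated CTCF replicate 2. Cycs, the somatic cytochrome c, gave 436 and 411 reads untreated, 424 and 482 with IAA, 433 and 547 with wild-type CTCF, and 339.6 and 390.5 with mutated CTCF. Its 2 wild-type CTCF libraries stood apart, at 433 and 547 reads, so the size of its difference between the 2 forms depends on replicate 2. Its 2 mutated CTCF libraries were the lowest of the 8, and it was lower with mutated than with wild-type CTCF by 0.42 on the log2 scale (log2 fold change -0.42, SE 0.091, adjusted p = 0.000384) and than with IAA alone (-0.31, adjusted p = 0.00678). The second of these was -0.22 (adjusted p = 0.154) without IAA replicate 2 and was also lost without mutated CTCF replicate 1. Pdss1, which makes the tail of coenzyme Q, rose with IAA from 3574 and 3551 reads to 4248 and 4276, by 0.26 (SE 0.037, adjusted p = 3.23e-07), with any library left out. It was lower with mutated CTCF than with IAA alone (-0.14, adjusted p = 0.0037). Coq5 rose with wild-type CTCF by 0.38 (adjusted p = 0.00115), also with any library left out. Coq10a (-0.38) with IAA, Coq6 (0.39) with mutated CTCF, and Coq10a (0.48), Coq10b (0.21) and Coq8a (-0.44) between the 2 forms lost the call without at least 1 library, with adjusted p rising to between 0.101 (Coq10a) and 0.271 (Coq8a).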
